A study of Mus musculus with 6 samples.

Results

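The Forkhead (Fox) and Sox families are 2 groups of DNA-binding transcription factors, and their messenger RNA was followed in mouse myoblasts with and without transforming growth factor beta (TGFb). Members were taken by name: every non-control probe whose gene name is Fox followed by a letter from a to s and a number, leaving out Foxm1, or Sox followed by a number. This gave 85 probes for 62 genes, 43 Forkhead and 19 Sox, of the 55681 probes and 36499 gene names on the array. Myoblasts, the dividing precursors of skeletal muscle fibres, had been sorted by flow cytometry from skeletal muscle of male C57BL/6 mice aged 3 months and grown in DMEM with 20% serum. One group received TGFb for 4 days and the other was left untreated, and all other conditions in the labels were shared. Each group had 3 arrays, which the labels call biological replicates, each a 1-colour Agilent array of Cy3-labelled RNA.

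Forkhead factors bind DNA through a winged-helix domain, and Sox factors bend DNA with an HMG box. FoxO proteins act downstream of insulin signalling: Akt phosphorylates them and holds them out of the nucleus, and in muscle they are best known for switching on genes of protein breakdown. Sox9, with Sox5 and Sox6, drives the cartilage programme, while Sox4 and Sox11 (the SoxC group) act in immature neural and mesenchymal cells. TGFb signals through Smad2, Smad3 and Smad4, and several Forkhead factors are known partners of Smads.

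The promoters of 3 members that differed between the groups are shown first, searched for 7 motifs: the Smad box CAGAC, the Forkhead motif GTAAACA, the Sox motif ACAATG, the cAMP response element TGACGTCA, the E-box CACGTG, the TATA box TATAAA and the CCAAT box. Each line gives the 250 bases before the gene's start from RefSeq (GRCm38.p6), read 5′ to 3′ on the gene's own strand, with every match on either strand in capitals. Foxd3 lies on the + strand, at chr4:99656049-99656298, and Sox4 and Foxo3 on the - strand, at chr13:28953700-28953949 and chr10:42276696-42276945.
Foxd3: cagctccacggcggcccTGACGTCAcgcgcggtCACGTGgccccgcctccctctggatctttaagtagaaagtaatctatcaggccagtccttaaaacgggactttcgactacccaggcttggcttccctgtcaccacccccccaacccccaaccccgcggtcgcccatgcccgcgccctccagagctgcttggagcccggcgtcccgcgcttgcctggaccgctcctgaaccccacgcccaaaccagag
Sox4: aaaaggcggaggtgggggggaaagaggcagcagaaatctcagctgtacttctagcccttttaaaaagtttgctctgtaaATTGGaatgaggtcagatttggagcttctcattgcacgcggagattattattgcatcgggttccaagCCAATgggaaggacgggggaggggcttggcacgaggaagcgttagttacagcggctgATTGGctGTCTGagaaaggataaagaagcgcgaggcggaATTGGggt
Foxo3: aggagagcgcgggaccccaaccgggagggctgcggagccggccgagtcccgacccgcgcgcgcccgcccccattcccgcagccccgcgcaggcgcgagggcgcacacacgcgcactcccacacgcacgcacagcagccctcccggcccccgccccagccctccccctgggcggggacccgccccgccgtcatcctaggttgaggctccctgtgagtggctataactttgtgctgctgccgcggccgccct
The Foxd3 window held 1 cAMP response element, its first base at position -233 from the start, and 1 E-box at -217. The full cAMP response element was found in 1.55% of the 32851 windows of this length in the table, and the E-box in 6.02%. The Sox4 window held 4 CCAAT boxes, at -171, -104, -47 and -8, and 1 Smad box at -40. A CCAAT box was present in 33.8% of all windows and a Smad box in 42.2%. None of the 7 motifs was found in the Foxo3 window, which is 76.4% G and C. Of the 62 genes, 41 had a promoter in the table (51 windows). Of these 51 windows, 33.3% held a Smad box, 3.92% the Forkhead motif and 9.80% the Sox motif, against 42.2%, 3.17% and 10.69% of all windows. A match is a run of letters and was not tested as a binding site.

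Levels below are log2 processed signal minus the 75th percentile of the same array, so 0 is the array's upper quartile. They serve to compare arrays at 1 probe and not 1 gene with another, because probes bind with different strength. Of the 62 genes, 40 (29 Forkhead, 11 Sox) were tested, meaning that 3 or more of the 6 arrays had a probe's signal well above background. For 21 genes no probe was well above background on any array, among them Foxa1, Foxa2, Foxb1, Foxb2, Foxd1, Foxe1, Foxf1, Foxi2, Foxn1, Foxn4, Foxp2, Foxr1 and Foxr2 of the Forkheads, and Sox2, Sox3, Sox7, Sox15, Sox17, Sox18 and Sox30. The dim set holds the endothelial trio Sox7, Sox17 and Sox18 and the pluripotency factor Sox2. Sox10, the neural crest and Schwann cell factor, was well above background on 2 untreated arrays, both scanned on day 1, and on none of the others, and was not tested. At the other end, 32 genes (22 Forkhead, 10 Sox) had a probe with signal well above background throughout.

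Scanning took 2 days. Day 1 held TGFb replicate 1 and untreated replicates 1 and 2, and day 2 held TGFb replicates 2 and 3 and untreated replicate 3. The upper quartile of intensity ranged from 879 to 1578 between arrays, 52.0% to 56.7% of spots were well above background on each, and no member spot was saturated. The first principal component over all genes held 72.4% of the variance and the second 16.3%. Whether either component follows scan day, slide or group was not tested. The difference between days, fitted together with group, had a median size of 0.73 log2 over the 40 members and 0.79 over all genes tested. It was larger than the group difference of the same fit in 26 of the 40 members, a count not compared with all genes. Members that passed are therefore given from 2 limma fits, with group alone and with scan day as a second term. Other genes are given from the latter unless both are named. The probes tested as Foxe3, Foxh1, Foxi3 and Sox14 exceeded background clearly on exactly the 3 arrays of day 1.

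**Figure D1:**
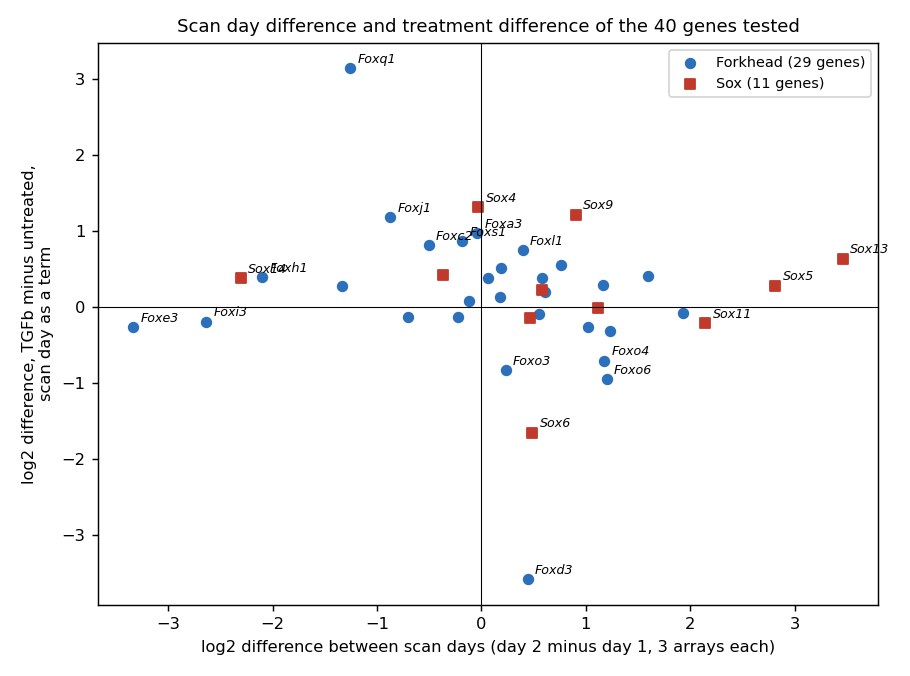
Difference between scan days (x axis, log2, day 2 minus day 1, fitted together with group) against the TGFb minus untreated difference with scan day as a term (y axis, log2). The 40 genes tested are shown. Circles are Forkhead and squares Sox genes. Sox13, Sox5, Foxe3 and Foxi3 lie far out along the day axis and near 0 on the treatment axis or within its error, while Foxd3, Foxq1, Sox4 and Sox6 lie far out along the treatment axis.

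With group alone, 1 of the 40 members passed an adjusted p of 0.05 (limma, Benjamini-Hochberg over all 21999 genes): Foxd3, which fell. In the whole array 1.37% of genes passed that fit, 0.686% in each direction. At an unadjusted limma p under 0.05 there were 8 members, a count not compared with all genes. Adding scan day let 9 of the 40 pass, or 22.5%, against 10.2% of all genes. Foxq1, Foxj1, Foxl1, Sox4 and Sox9 rose, where 4.59% of all genes did, and Foxd3, Foxo3, Foxo6 and Sox6 fell, where 5.59% did. The median log2 difference over the 40 was 0.38 with group alone and 0.25 with scan day as a term, beside 0.05 and 0.04 over all genes. When 1 array at a time was left out and scan day kept in, Foxd3 passed 6 of 6 times, Foxq1 5 of 6, Sox4, Sox9, Sox6 and Foxo6 2 of 6, Foxo3 and Foxl1 1 of 6 and Foxj1 0 of 6. The groups did not overlap in 10 of the 40, or 25.0%, with TGFb higher in 7 and lower in 3, against 18.0% of all genes (8.45% higher, 9.50% lower).

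**Figure D2:**
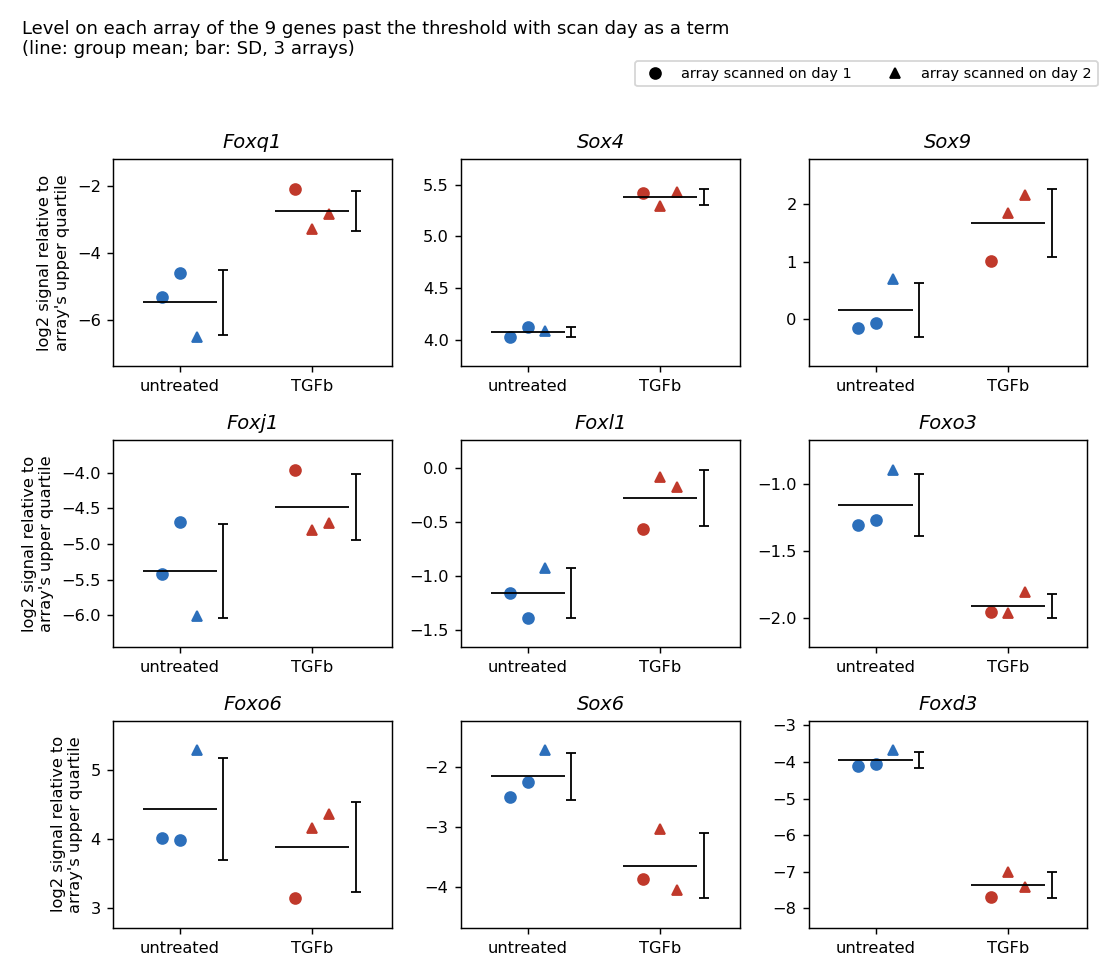
Level on each array (y axis, log2 signal relative to the array's upper quartile) of the 9 genes that passed with scan day as a term, by group; circles are arrays of scan day 1, triangles of day 2, lines the group mean and bars the SD of 3 arrays. The groups do not overlap for Foxq1, Sox4, Sox9, Foxl1, Foxo3, Sox6 and Foxd3, and overlap for Foxj1 and Foxo6.

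Foxd3, a factor that keeps pluripotent and neural crest cells undifferentiated, was detected in untreated cells and not in treated ones. Its single probe (mm9 chr4:99325170-99325229) read -4.10, -4.05 and -3.68 in untreated replicates 1 to 3, and -7.70, -7.00 and -7.42 in TGFb replicates 1 to 3. It was well above background on all 3 untreated arrays and on none of the TGFb arrays, and the groups did not overlap. Foxd3 thus met the filter for testing through the untreated arrays alone, and its p-values are not independent of that filter. On the processed signal, counting the treated arrays at the lowest signal that was well above background, Foxd3 was at least 3.03-fold lower with TGFb. The fitted log2 difference was -3.43 ± 0.30 (SE) with group alone (limma adjusted p = 0.0152). Adding scan day as a term gave -3.58 ± 0.17 (limma adjusted p = 0.00158). It was -3.63 within day 1 and -3.53 within day 2. Because one side is below background, the fold bound and the size of the fitted difference both depend on how background is handled. The fitted difference was -0.99 with a different background correction (normexp) and scan day as a term (limma adjusted p = 0.00717). Under normexp with group alone, no Forkhead gene passed. The gene is dim even in untreated cells. Foxd3 also belongs to the Schwann cell and neural crest marker list, of which 7 of 11 genes were tested. In that list Foxd3 alone passed with group alone. Mbp, a myelin protein gene, rose with scan day as a term (0.98 ± 0.16, limma adjusted p = 0.0218), Ngfr differed by -0.72 (limma adjusted p = 0.0507) and Erbb3 by -0.49 (0.382). Cdh19 and Dct were not well above background on any array. The summed level of the list spanned 1.50 to 2.17 in TGFb arrays and 1.32 to 1.86 in untreated arrays. In bulk RNA fewer cells of a type and less RNA per cell cannot be told apart.

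Foxq1, a Forkhead gene linked to epithelial-mesenchymal transition, rose with TGFb. It read -2.10, -3.28 and -2.86 in TGFb replicates 1 to 3, and -5.32, -4.59 and -6.49 in untreated replicates 1 to 3 (mm9 chr13:31652206-31652265). All 3 TGFb arrays and 1 untreated array were well above background, and the groups did not overlap. Its log2 difference was 3.14 ± 0.29 with scan day as a term (SE; limma adjusted p = 0.00487). With group alone it was 2.72 ± 0.58 and did not pass (limma adjusted p = 0.112). Within day 1 it was 2.86 and within day 2 it was 3.42. Under normexp with scan day as a term it was 1.44 and passed (limma adjusted p = 0.0022), so the size of the rise depends on how background is handled.

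Sox4, a SoxC factor known as a TGFb target in other cell types, had the tightest groups of the 9. Its brightest probe (mm9 chr13:29040826-29040885) read 5.43, 5.29 and 5.43 with TGFb and 4.03, 4.12 and 4.08 without. These ranges are more than 1 log2 unit apart, and scan day moved the probe by -0.03. The log2 difference was 1.31 ± 0.14 with scan day as a term (limma adjusted p = 0.00671) and 1.31 ± 0.23 with group alone (limma adjusted p = 0.0677). Sox4 has 2 other probes. Tested on their own with scan day as a term, they differed by 0.57 and 1.17 (limma adjusted p = 0.0806 and 0.0823 over all probes, of which 8.38% passed). So all 3 probes were higher with TGFb and differed in size.

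The other SoxC members did not pass in either fit. Sox11 read 3.63, 5.21 and 5.39 with TGFb and 3.33, 3.40 and 5.99 without, so the groups overlapped and followed scan day. Its difference was 0.50 with group alone and -0.21 ± 0.25 with scan day as a term (limma adjusted p = 0.635). Sox12 differed by -0.02 ± 0.23 with scan day as a term (limma adjusted p = 0.972). The differences between these genes and Sox4 were not tested. Tubb3 and Dcx, neuronal cytoskeleton genes described as SoxC targets, went in opposite directions: Tubb3 rose by 2.81 ± 0.16 (limma adjusted p = 0.00194) and Dcx fell by 1.36 ± 0.23 (limma adjusted p = 0.0249), both with scan day as a term.

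Sox9, the master factor of cartilage, rose with TGFb. Its probe (mm9 chr11:112648809-112648868) read 1.01, 1.84 and 2.16 in TGFb replicates 1 to 3 and -0.15, -0.07 and 0.70 in untreated replicates 1 to 3. The groups did not overlap, and the arrays of day 2 were the highest of each group. The log2 difference was 1.21 ± 0.16 with scan day as a term (limma adjusted p = 0.0127) and 1.51 ± 0.42 with group alone (limma adjusted p = 0.217). Within day 1 it was 1.12 and within day 2 it was 1.30.

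Of the other SoxE and SoxD members tested, only Sox6 passed, in the opposite direction to Sox9. The differences between these genes and Sox9 were not tested. Sox8 overlapped between groups and differed by -0.14 ± 0.24 with scan day as a term (limma adjusted p = 0.748). Sox6, which promotes chondrocyte maturation beside Sox9 and represses slow-fibre genes in muscle, fell. Sox6 read -3.86, -3.02 and -4.04 with TGFb and -2.50, -2.24 and -1.72 without, with no overlap. Its log2 difference was -1.65 ± 0.32 with scan day as a term (limma adjusted p = 0.0349) and -1.49 ± 0.39 with group alone (limma adjusted p = 0.189), from 1 probe at mm9 chr7:122615418-122615477. Sox13 differed by 0.64 ± 0.80 with scan day as a term (limma adjusted p = 0.657) and by 1.79 ± 1.51 with group alone (limma adjusted p = 0.736). Its levels ran from -1.20 to 4.47 over the 6 arrays, and days differed by 3.46 when fitted together with group.

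The probes that stood for Sox5 and Foxl2 bind unusual sequence, so they are shown in part or whole. The Sox5 line is the first 30 bases of its 60-base probe with each GGA in capitals. The Foxl2 lines are its 2 probes in full, which overlap at mm9 chr9:98856894-98856950 and chr9:98856846-98856905, with each CCGCC in capitals. Foxl2 was chosen for this after its values were seen.
Sox5 probe: GGAGGAGGAGGAagaGGAGGAGGAGGAaga
Foxl2 brighter probe: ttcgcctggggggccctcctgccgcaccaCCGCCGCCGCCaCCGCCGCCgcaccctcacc
Foxl2 dimmer probe: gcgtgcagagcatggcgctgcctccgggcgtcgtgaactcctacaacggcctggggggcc
The Sox5 probe holds GGA 16 times and the array's annotation places 27 of its bases in mm9. It read 5.34, 8.04 and 8.38 with TGFb and 5.16, 5.07 and 7.88 without, so the groups overlapped and the day-2 arrays were the high ones. It differed by 0.28 ± 0.16 with scan day as a term (limma adjusted p = 0.325). The other 2 Sox5 probes were not well above background on any array. The brighter Foxl2 probe is 81.7% G and C and was well above background on all 6 arrays, with means of 5.15 in TGFb and 4.76 in untreated arrays. The dimmer one is 71.7% G and C and was well above background on 3 arrays, all of day 1. What the bright signals of these 2 probes measure was not tested.

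Among the 4 FoxO genes, 2 fell and none rose with scan day as a term, where 5.59% of all genes fell and 4.59% rose. Whether the FoxO genes differ from all genes in this was not tested. Foxo3, the member tied most closely to muscle wasting, read -1.95, -1.96 and -1.81 with TGFb and -1.31, -1.27 and -0.89 without. The groups did not overlap. The log2 difference was -0.83 ± 0.15 with scan day as a term (limma adjusted p = 0.0324) and -0.75 ± 0.25 with group alone (limma adjusted p = 0.321). A second, dimmer Foxo3 probe differed by -1.02 with scan day as a term (limma adjusted p = 0.104 over all probes). Foxo6, best known in the brain and able to act without the nuclear exit that Akt imposes on its relatives, read 3.15, 4.16 and 4.37 with TGFb and 4.02, 4.00 and 5.29 without. These ranges overlap, and each day on its own put TGFb lower: -0.86 within day 1 and -1.03 within day 2. With scan day as a term Foxo6 fell by 0.95 ± 0.15 (limma adjusted p = 0.0192), and with group alone the difference was -0.55 ± 0.51 (limma adjusted p = 0.758). Its second probe differed by -0.97 with scan day as a term (limma adjusted p = 0.0464 over all probes).

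Foxo4 and Foxo1 did not pass in either fit. Foxo4 differed by -0.70 ± 0.18 with scan day as a term (limma adjusted p = 0.0777), and its second probe by -0.59. Foxo1, which restrains myoblast differentiation, differed by 0.20 ± 0.13 (limma adjusted p = 0.391), and its second probe by 0.51 (limma adjusted p = 0.0924 over all probes). Both Foxo1 probes were higher with TGFb within each day, and both Foxo4 probes lower.

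**Figure D3:**
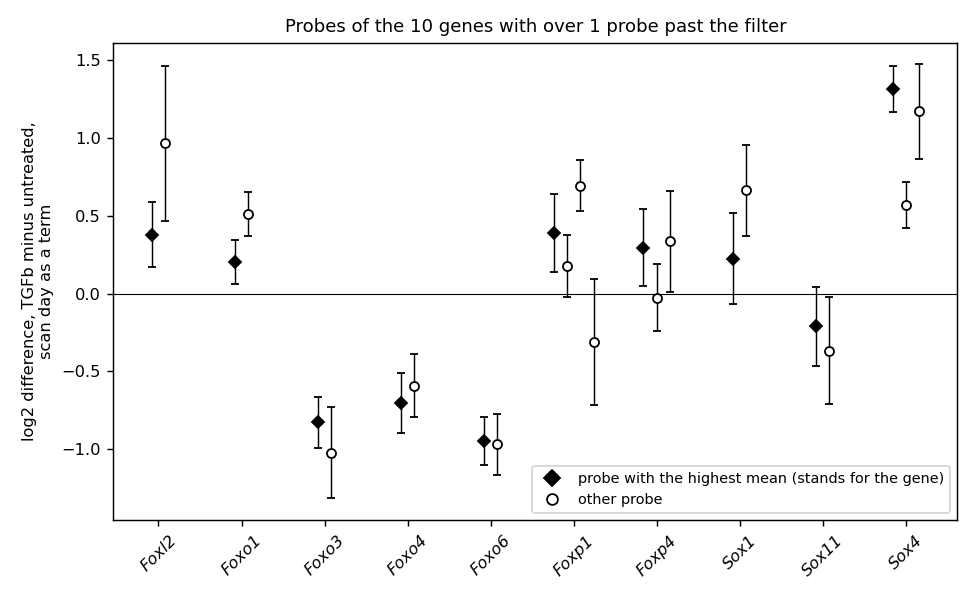
TGFb minus untreated difference (y axis, log2, scan day as a term, bars are SE) for each probe past the filter of the 10 genes with over 1 such probe; diamonds are the probe that stands for the gene and circles the others. The Foxo3, Foxo4 and Foxo6 probes are all below 0 and the Foxo1 and Sox4 probes all above 0, while probes of Foxp1 and of Foxp4 lie on both sides.

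The mesenchymal Forkhead genes Foxc1, Foxc2, Foxf2, Foxl1, Foxd2 and Foxs1 mark connective tissue, vessel wall or their embryonic sources. With scan day as a term 1 of these 6 passed, where 10.2% of all genes did. Foxl1, a factor of gut mesenchyme, read -0.57, -0.08 and -0.17 with TGFb and -1.15, -1.38 and -0.92 without. There was no overlap, and Foxl1 rose by 0.75 ± 0.15 with scan day as a term (limma adjusted p = 0.0378), against 0.88 ± 0.28 with group alone (limma adjusted p = 0.282). Foxs1, a gene of pericytes and vascular smooth muscle, read -0.29, -0.57 and 0.09 with TGFb and -0.99, -0.87 and -1.34 without. Its groups did not overlap either, and its difference of 0.87 ± 0.24 with scan day as a term missed the threshold (limma adjusted p = 0.0894). Foxd2 did not overlap and differed by 0.52 ± 0.15 (limma adjusted p = 0.0934). Foxc2 overlapped narrowly, with 1.16 as its lowest TGFb level and 1.32 as its highest untreated level, and differed by 0.82 ± 0.25 (limma adjusted p = 0.113). Its close relative Foxc1 differed by -0.09 ± 0.22 (limma adjusted p = 0.842). Foxf2 differed by 0.94 with group alone and by 0.41 ± 0.26 with scan day as a term (limma adjusted p = 0.373).

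Foxj1, the master factor of motile cilia, was a dim gene that rose with scan day as a term by 1.18 ± 0.24 (limma adjusted p = 0.0403). It read -3.96, -4.80 and -4.70 with TGFb and -5.42, -4.70 and -6.01 without, so the groups overlapped. It was well above background on all 3 TGFb arrays and 1 untreated array. With group alone it differed by 0.89 ± 0.44 (limma adjusted p = 0.542), and with normexp and scan day as a term by 0.45 (limma adjusted p = 0.0859).

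Foxk1, Foxk2, Foxj3, Foxp1, Foxh1 and Foxp3 did not pass in either fit. Foxk1, first described in muscle satellite cells, differed by 0.27 ± 0.17 with scan day as a term (limma adjusted p = 0.358) and Foxk2 by -0.08 ± 0.20 (limma adjusted p = 0.838). Foxj3, an activator of Mef2c in muscle, differed by -0.32 ± 0.15 (limma adjusted p = 0.252). Foxp1 differed by 0.39 ± 0.24 (limma adjusted p = 0.368), and its 4 probes past the filter ran from -0.31 to 0.69. Foxh1, the nuclear partner of Smad2 in nodal and activin signalling, was well above background on the day-1 arrays alone and differed by 0.40 ± 0.43 (limma adjusted p = 0.603). Foxp3, the factor of regulatory T cells, was well above background on all 6 arrays at -4.66 to -2.79 and differed by 0.55 ± 0.32 (limma adjusted p = 0.332). The T cell gene Cd3e was also well above background on all 6 arrays. So were the myeloid genes Itgam, Csf1r and Cd14. Cd3g was so on 4 arrays, Ptprc, expressed by all leukocytes, Tyrobp and Adgre1 on 1, 1 and 2, and Lyz2, Aif1 and Cd68 on none.

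**Figure D4:**
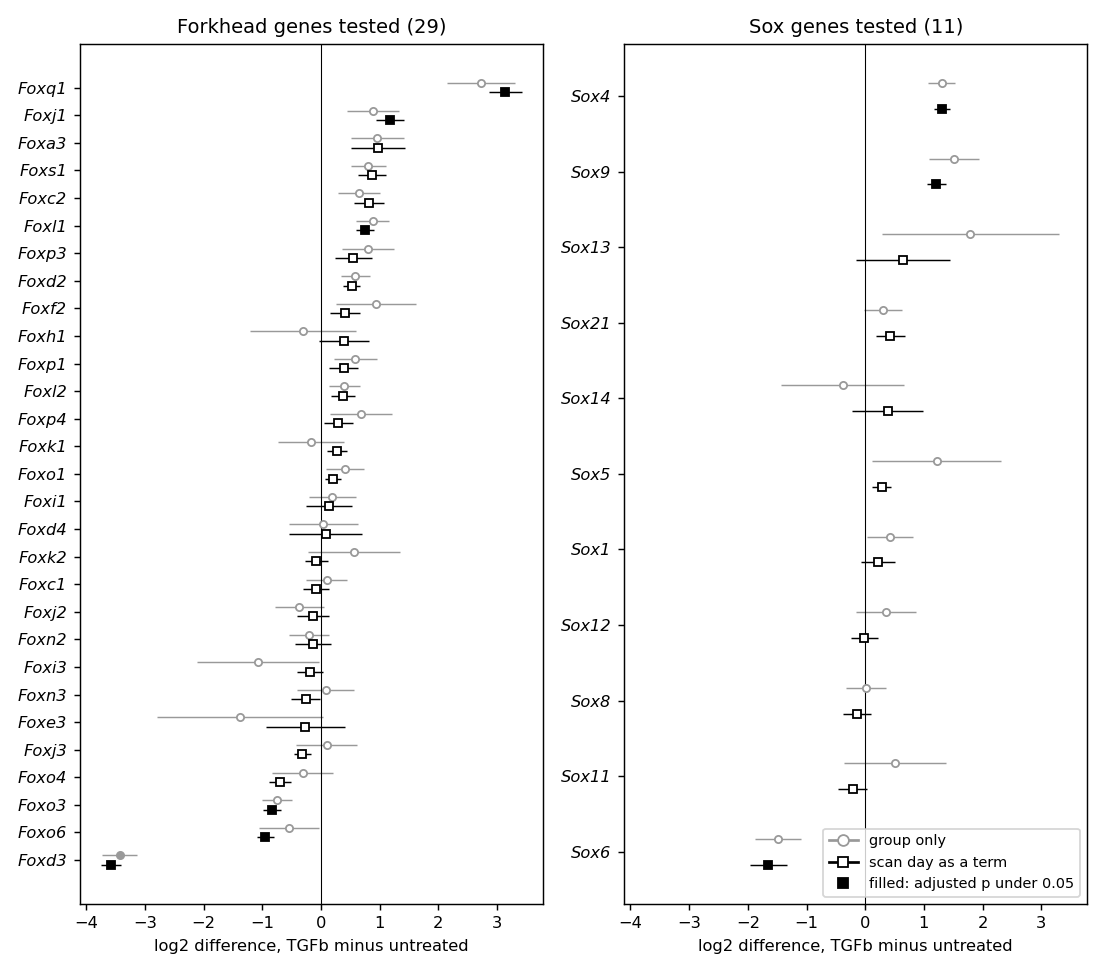
TGFb minus untreated difference (x axis, log2, bars are SE) of the 29 Forkhead and 11 Sox genes tested, with group alone (grey circles) and with scan day as a term (black squares); filled symbols passed a limma adjusted p of 0.05. With group alone Foxd3 passed; with scan day as a term 9 genes passed, and their bars are shorter.

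The authors also deposited a table of normalized log2 values for the same arrays. Its day differences had a median size of 0.15 over all genes and 0.16 over the 40 members. These are plain differences of day means without a group term, so they are not the same measure as the sizes given above. Tested in limma with group alone on that table, 11 of the 40 members passed (27.5%, 7 rose and 4 fell), against 15% of all genes. Of the 9 genes named above, 7 were among the 11: Foxq1, Foxl1, Sox4, Sox9, Foxd3, Foxo6 and Sox6. Foxo3 and Foxj1 were not among them, and Foxc2, Foxd2, Foxs1 and Foxo4 were the other 4. In the authors' deposited table Foxo6 read 14.07, 13.97 and 14.09 with TGFb and 15.17, 15.06 and 14.90 without, with no overlap (-0.998 ± 0.122, limma adjusted p = 0.00224). Both sets of values come from the same 6 arrays and are not independent evidence of each other.

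Genes described as direct FoxO targets split in both directions. Of 30, 27 were tested; none passed with group alone (limma), and with scan day as a term 5 rose and 3 fell, where 4.59% of all genes rose and 5.59% fell. The median difference was -0.12 with group alone and -0.23 with scan day as a term, beside 0.05 and 0.04 over all genes. At the top stood Pik3ip1, an inhibitor of PI3 kinase, at 1.83, 2.41 and 2.20 with TGFb and 0.36, 0.26 and 1.00 without. The groups did not overlap and Pik3ip1 rose by 1.41 ± 0.15 (limma adjusted p = 0.00697). Gabarapl1 of the autophagy machinery rose by 0.78, Klf2, a transcription factor, by 1.19, and Irs2, the insulin receptor substrate, by 1.15. S1pr1, a sphingosine phosphate receptor, fell by 1.94 and Cdkn1a, the cell cycle inhibitor p21, by 0.94. The groups overlapped for Klf2 and Irs2, and did not for Gabarapl1, S1pr1 and Cdkn1a. The pair of ubiquitin ligases that mark muscle atrophy parted. Trim63 (MuRF1) read 2.63, 3.89 and 4.14 with TGFb and 3.98, 3.81 and 5.002 without, and fell by 1.13 ± 0.16 (limma adjusted p = 0.0164). Fbxo32 (atrogin-1), named after its values were seen, read 2.36, 2.45 and 1.85 with TGFb and 1.01, 1.01 and 1.31 without, and rose by 1.10 ± 0.23 (limma adjusted p = 0.0464). The Trim63 groups overlapped and the Fbxo32 groups did not.

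Of the cartilage genes described as dependent on Sox9, Sox5 and Sox6, those that passed all rose. Of 30, 19 were tested: 3 rose and none fell with group alone, and 6 rose and none fell with scan day as a term, where 4.59% of all genes rose and 5.59% fell. The 3 with group alone, Ucma, Col11a1 and Cilp, met the filter for testing through their TGFb arrays alone. Their calls in both fits are therefore not independent of that filter, and the counts are not evidence about the list. The median difference was 0.07 with group alone and 0.51 with scan day as a term, beside 0.05 and 0.04 over all genes. Ucma, a secreted protein of the growth plate, read -0.59, -0.54 and -0.90 with TGFb and -7.56, -7.12 and -7.45 without. It was well above background on all TGFb arrays and on no untreated array, at least 30.2-fold higher (limma adjusted p = 0.0015 when scan day is a term). Col11a1 and Cilp, a minor fibrillar collagen and a matrix protein of cartilage, were likewise well above background only on the TGFb arrays, at least 4.13-fold and 8.14-fold higher. As for Foxd3, the bounds of these genes and of Ucma hold for the processed signal. Col2a1, the main collagen of cartilage, read -2.18, -1.19 and -0.82 with TGFb and -4.70, -5.44 and -3.77 without, with no overlap. Col2a1 rose by 2.83 ± 0.26 with scan day as a term (limma adjusted p = 0.00481), and with group alone it did not pass (limma adjusted p = 0.0633). Several defining cartilage genes did not pass or were too dim to be tested. Acan, the core proteoglycan, differed by 0.10 ± 0.14 (limma adjusted p = 0.691), and Matn1, Hapln1, Col9a1, Col9a3 and Col10a1 were not well above background on any array. Of these dim genes, Col10a1 read -6.07, -6.01 and -6.57 with TGFb and -7.35, -7.71 and -7.88 without, with no overlap. The groups overlapped for Matn1, Hapln1, Col9a1 and Col9a3. Whether Sox9 had a part in these rises was not tested.

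**Figure D5:**
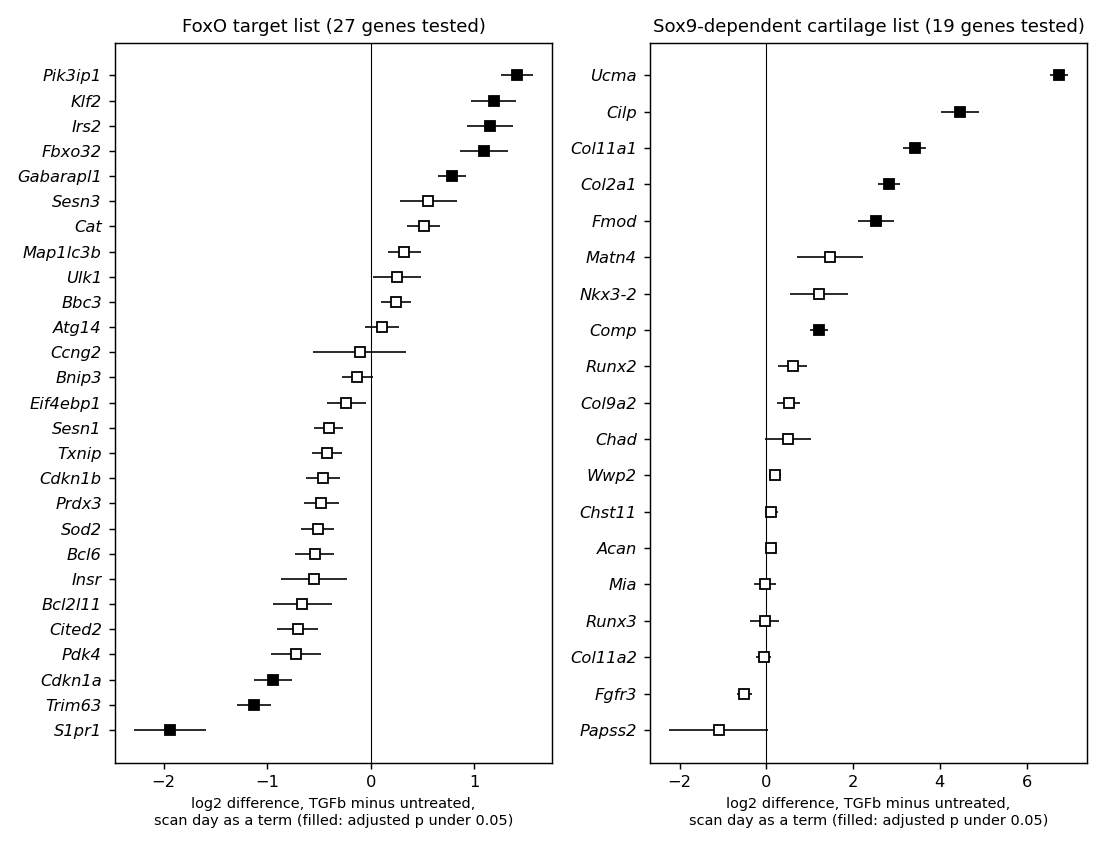
TGFb minus untreated difference (x axis, log2, scan day as a term, bars are SE) of the tested genes of the FoxO target list (27) and of the cartilage list (19); filled symbols passed a limma adjusted p of 0.05. The FoxO targets that passed lie on both sides of 0, and the 6 cartilage genes that passed lie above it.

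Kinases, Smads and cofactors that act with Forkhead and Sox proteins were read as a further list, which also holds the SoxC targets Tubb3 and Dcx given above. Of its 22 genes 20 were tested, and none passed with group alone (limma). With scan day as a term 2 rose and 3 fell, Tubb3 and Dcx among them, where 4.59% of all genes rose and 5.59% fell. Akt2, a kinase that inactivates FoxO proteins, fell by 1.37 ± 0.18 (limma adjusted p = 0.013), while Sgk1, a kinase that phosphorylates the same proteins, rose by 1.02 ± 0.21 (limma adjusted p = 0.0429). Akt1 differed by -0.46 (limma adjusted p = 0.103). Smad3, which carries the TGFb signal into the nucleus, fell by 1.19 ± 0.19 (limma adjusted p = 0.0218), and with group alone it differed by -0.64 (limma adjusted p = 0.773), whereas Smad2 differed by -0.06 and Smad4 by 0.32, neither past the threshold.

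The myoblast label was checked on 14 marker genes, of which 12 were tested. Pax7, Myod1, Myog, Des and Cdh15 exceeded background clearly on every one of the 6 arrays, and Myf5 on 1 untreated array. With scan day as a term Pax3 and Ncam1 rose, Myf6 and Des fell, and Pax7 differed by -0.02. In that fit 4.59% of all genes rose and 5.59% fell, which holds for the other marker lists too. Markers of other cell types were detected in part: 4 of 13 endothelial genes were tested and none passed, and of 11 fibroblast and progenitor genes 7 were tested, of which Dcn and Osr1 fell. Of 12 leukocyte genes 6 were tested and none passed in either fit. The summed endothelial level was 2.36 to 2.68 in TGFb arrays and 2.88 to 3.04 in untreated arrays, the fibroblast level 1.50 to 2.41 and 1.17 to 1.90, and the leukocyte level 4.08 to 6.87 and 4.06 to 6.06. Of 7 chondrocyte markers 3 were tested, and 2, Col2a1 and Sox9, rose with scan day as a term. The part of these cell types in the member differences was not tested.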

How the data were processed

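RNA of 6 samples was measured on 1-colour arrays. The authors deposited 1 scanner file of spot intensities per array, extracted with Agilent Feature Extraction 10.7.3.1 per the file headers, and 1 table of log2 normalized values, made by a normalization not given in the sources used here. Its columns had medians of 6.99 to 7.00, and each correlated best with its own array (r across probes 0.992 to 0.993). From log2 processed intensity, the 75th percentile of an array's non-control spots was subtracted. Spots flagged as outliers (176 to 365 per array) were left out, and replicate spots were averaged. Testing required a signal well above background on 3 or more of 6 arrays and values on at least 2 arrays per group. The brightest such probe on average stood for its gene. Fits used limma 3.58.1 in R 4.3.3 (lmFit, eBayes) with group alone, then with scan day as a term, and Benjamini-Hochberg adjustment over 21999 genes. The fits were tested on simulated data.

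Symbols came from the array and were updated through RefSeq accessions (26300 of 55681 probes matched, 2839 names changed). Of the 85 member probes 77 matched, and 1 gene was renamed, Foxf1a to Foxf1. Probe positions are mm9, promoters GRCm38.p6. Which exon or UTR a probe reads was not analysed here. The number of arrays limits the precision. The scanner files of untreated replicates 1 and 2 carry the same number, and if they shared a culture, p-values would be too small. The members and lists were chosen with earlier results of these data known. Named genes are members that passed in either fit, members detected in 1 group only, members whose groups were apart by at least 1 log2 unit, 26 members chosen by role whatever their values, and up to 4 genes per list and direction by adjusted p. Others named are said to be chosen later, apart from those given to describe marker lists, undetected genes, or genes that did not pass. Some genes are not reported here by name. Alternatives are given in the closing section.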

Additional observations from a re-analysis of the deposited data

How the results depend on the processing

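Combinations of scan day with another choice were chosen after seeing the data. With group alone, the 1 Forkhead gene past the threshold became 6 with scan day as a term, 2 with slide as a block, 0 with normexp, 8 with the authors' table and 0 to 1 when 1 array was left out. The 0 Sox genes became 3 with scan day as a term, 3 with the authors' table and 1 when a probe had to be well above background on all arrays of a group. The 0 FoxO targets became 8 with scan day as a term, 1 with slide and 10 with the authors' table, and the 3 cartilage genes 6, 4 and 5, with 1 under normexp and 0 to 3 with 1 array left out. With scan day as a term, the 6 Forkhead genes became 3 under median scaling, 2 with no filter on dim probes and 1 to 7 with 1 array left out. The 8 FoxO targets became 4, 2 and 0 to 7 in the same order, the 3 Sox genes 0 to 3 and the 6 cartilage genes 2 to 6 with 1 array left out; without untreated replicate 3, 1 of the 2 cartilage calls is a fall. Median scaling moved the median of all genes from 0.04 to -0.15 and the share of rises among all calls with scan day as a term from 45.1% to 30.8%.

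Foxd3 with scan day as a term passed without any 1 array (limma adjusted p 0.00432 to 0.0317), and with group alone it was lost without TGFb replicate 2 or 3 or untreated replicate 1 or 2 (highest 0.135). Foxq1 was lost without untreated replicate 3 (0.0706). Sox4, Sox9, Foxo6 and Sox6 were lost without TGFb replicate 1 or any 1 untreated array (highest 0.073, 0.126, 0.157 and 0.252), Foxo3 and Foxl1 without any array but TGFb replicate 3 (highest 0.216 and 0.224), and Foxj1 without any array (0.0549 to 0.257). Their directions held throughout. Leaving out TGFb replicate 1 or untreated replicate 3 left a scan day with a single group. With scan day as a term, the difference in those fits is the one within the other day, so these losses also reflect fewer usable arrays. With group alone, members that had not passed turned sign: with scan day as a term Foxc1 (-0.086), Foxh1 (0.40), Foxj3 (-0.32), Foxk1 (0.27), Foxk2 (-0.080), Sox11 (-0.21) and Sox8 (-0.14); with slide as a block Foxh1 (0.77), Foxj3 (-0.37), Foxk1 (0.24), Foxk2 (-0.22) and Sox11 (-0.27); with the authors' table Foxc1 (-0.073), Foxh1 (0.015), Foxj3 (-0.25), Foxk1 (0.18) and Sox8 (-0.16); under quantile normalization Foxj3 (-0.034) and under median scaling Sox8 (-0.053). With 1 array left out the ranges crossed 0 for Foxc1 (-0.070 to 0.37), Foxh1 (-1.16 to 0.30), Foxj3 (-0.17 to 0.52), Foxk1 (-0.70 to 0.10), Foxo4 (-0.63 to 0.11), Sox8 (-0.19 to 0.23) and Smad3 (-0.99 to 0.00038). The causes were not tested.

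The arrays could not show whether the replicate numbers pair the samples. Same-numbered arrays' deviations from their group means correlated at 0.808, -0.716 and 0.691. Both arrays numbered 1 were scanned on day 1 and both numbered 3 on day 2, while those numbered 2 were split between days. Scan day was not removed from these deviations, so a shared day and pairing cannot be told apart. With the replicate block, 0 Forkhead and 0 Sox genes passed, 0 FoxO targets and 1 cartilage gene.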
